A study of Rattus norvegicus with 18 samples.

Results

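The Igf2 and H19 imprinted locus of the rat was examined as the stretch of chromosome 1 from 215700001 to 215900000 of build rn6, and every cytosine measured there was taken. That gave 571 cytosines of the 2330883 in the whole table. Adult male Sprague-Dawley rats gave the left hippocampus, whose DNA was profiled by reduced representation bisulfite sequencing, in which MspI cuts at CCGG and bisulfite makes unmethylated cytosines read as thymine. Kindling, in which the hippocampus was stimulated through implanted electrodes day after day until the rat was fully kindled, was represented by 4 sham rats and by 4 seizure rats labelled with 3 class V seizures. Systemic kainic acid, a glutamate receptor agonist injected in rising amounts until status epilepticus in rats that also had electrodes implanted, was represented by 7 sham rats and by 3 seizure rats carrying the label of 3 class V seizures. Dissection followed the last seizure by 24 hours. The procedure of the sham rats was not given in the sources used here.

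Igf2 encodes insulin-like growth factor II, a fetal growth factor that acts through the IGF1 receptor and is cleared by the IGF2 receptor. H19 is a long noncoding RNA that hosts a microRNA. Both genes are imprinted: in most tissues Igf2 is transcribed from the paternal copy and H19 from the maternal one. A control region upstream of H19 is methylated on the paternal copy alone, where methylation keeps the insulator protein CTCF from binding, so bulk DNA reads close to half-methylated there. In the brain, the leptomeninges and choroid plexus are known for expressing Igf2 from both copies. The levels below average over both parental copies and over all cell types of the hippocampus, so a change within cells and a change in cell makeup cannot be told apart.

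The table gives positions and no sequence, and an rn6 annotation was not used here. In the RefSeq gene order of assembly GRCr8, H19 (gene ID 309122) lies between Mrpl23 (gene ID 64360), a mitochondrial ribosomal protein gene, and Igf2 (gene ID 24483), with Ins2 beyond Igf2. RefSeq promoter sequences could be laid on the measured positions by the spacing of their CpGs alone, without use of the methylation levels. The window of 1 Igf2 start site, called promoter A, held 13 measured CpGs, and all 13 fell on CpGs of the sequence, where the next best place on chromosome 1 with no unmatched CpG held 4. That puts its start site at 215838209 on the minus strand. A further Igf2 start site, promoter B, lies 3505 bp downstream, and at that distance all 3 measured CpGs fell on CpGs of its sequence. The Mrpl23 promoter matched at 19 of 19 measured CpGs (next best place 6) and starts at 215701544. The place of H19 and of its control region among the measured cytosines was not determined, so no level below is assigned to H19. Measured cytosines left gaps of up to 30854 bp, between 215755928 and 215786783, and of 10893 bp between 215744887 and 215755781.

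The promoter sequences are shown because the levels at Igf2 differ between one kind of CpG and all others. Each is the 250 bases before the start site in RefSeq assembly GRCr8, written 5′ to 3′ on the minus strand, with the measured CpGs in capitals. By the match in spacing, promoter A covers chr1:215838210-215838459 of rn6 and promoter B covers chr1:215834705-215834954.

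Igf2 promoter A: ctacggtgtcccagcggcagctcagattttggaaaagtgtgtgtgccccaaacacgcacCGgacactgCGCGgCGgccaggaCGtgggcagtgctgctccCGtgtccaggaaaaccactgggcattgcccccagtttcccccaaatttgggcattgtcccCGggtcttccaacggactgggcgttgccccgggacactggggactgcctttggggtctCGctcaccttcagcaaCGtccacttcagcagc

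Igf2 promoter B: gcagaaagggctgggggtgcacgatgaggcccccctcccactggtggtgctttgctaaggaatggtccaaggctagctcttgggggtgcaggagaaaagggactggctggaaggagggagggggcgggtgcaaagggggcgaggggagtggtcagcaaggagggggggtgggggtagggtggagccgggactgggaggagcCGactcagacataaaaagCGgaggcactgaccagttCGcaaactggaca

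Of the 15 CpGs in the bases shown for promoter A, 9 were measured, and of the 7 shown for promoter B, 3 were. Promoter A holds 3 CCGG sites in these bases and promoter B 1. The GC box GGGCGG, searched on both strands, occurred 1 time in promoter B and 0 times in promoter A. Of all 33469 RefSeq promoter sequences of GRCr8 searched, placed or not, 30.5% hold it in the same 250 bases.

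Igf2 promoter A was unmethylated in every rat except at its CCGG sites. Its 22 cytosines outside CCGG had a mean over the rats of 4.58% ± 0.849 (SD, n = 18), from 3.44% in the lowest rat to 6.50% in the highest. The pair of measured CCGG cytosines, 89 and 190 bases before the start site, had mean levels of 97.5% (at 215838299) and 98.0% (at 215838399), and no rat was below 91.4% there. The CpG 181 bases before the start site, beside the second of these, had 6.28 and 5.53% on its strands.

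The same split held beyond Igf2. Over 551 chromosome 1 promoters placed in the same way whose other CpGs had a median under 10%, 1842 CCGG cytosines had a median level of 97.8%, and 98.6% of them lay above 90%. Of the 18651 other cytosines in those promoters, 0 lay above 90%. Their median was 1.43%, which the choice of promoters holds low. The labels' protocol makes the cut ends blunt before adapters carrying methylated cytosines are joined to them. What part these steps have in the levels at CCGG was not tested. CCGG sites could not be identified outside the placed promoters. The flank level and the span difference below are therefore also given without cytosines above 90%.

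The Igf2 end of the span held dense, low methylation. From 215835541 to 215841599 there were 4 dense blocks of measured cytosines, a block being cytosines no more than 500 bp from the next. They held 363 cytosines, of which 322 were below 10%, with a mean of 2.49% and none of them above 7.49%. A further 39 were above 90%, from 94.0 to 98.8%, and the remaining 2, both strands of 1 CpG, had 19.6 and 20.9%. No cytosine of these blocks was half-methylated.

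Igf2 promoter B was intermediate and differed more between rats. Its 6 measured cytosines had a mean of 14.4% ± 3.12 (SD, n = 18), from 9.44 to 19.3%. Levels fell with distance from the start site: the CpG 12 bases before it had 20.4 and 26.7% on the plus and minus strand, the CpG 30 bases before it 18.9 and 13.5%, and the CpG 48 bases before it 2.93 and 3.72%. Kindling sham rats 1 to 4 had 17.8, 14.9, 18.6 and 9.44% at promoter B and kindling seizure rats 16.98, 17.99, 19.3 and 11.1%. Kainic acid sham rats ran from 10.6 to 16.9% with a median of 12.1%, and kainic acid seizure rats had 11.9, 15.2 and 12.3%. Sham and seizure rats overlapped in both models.

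**Figure D1:**
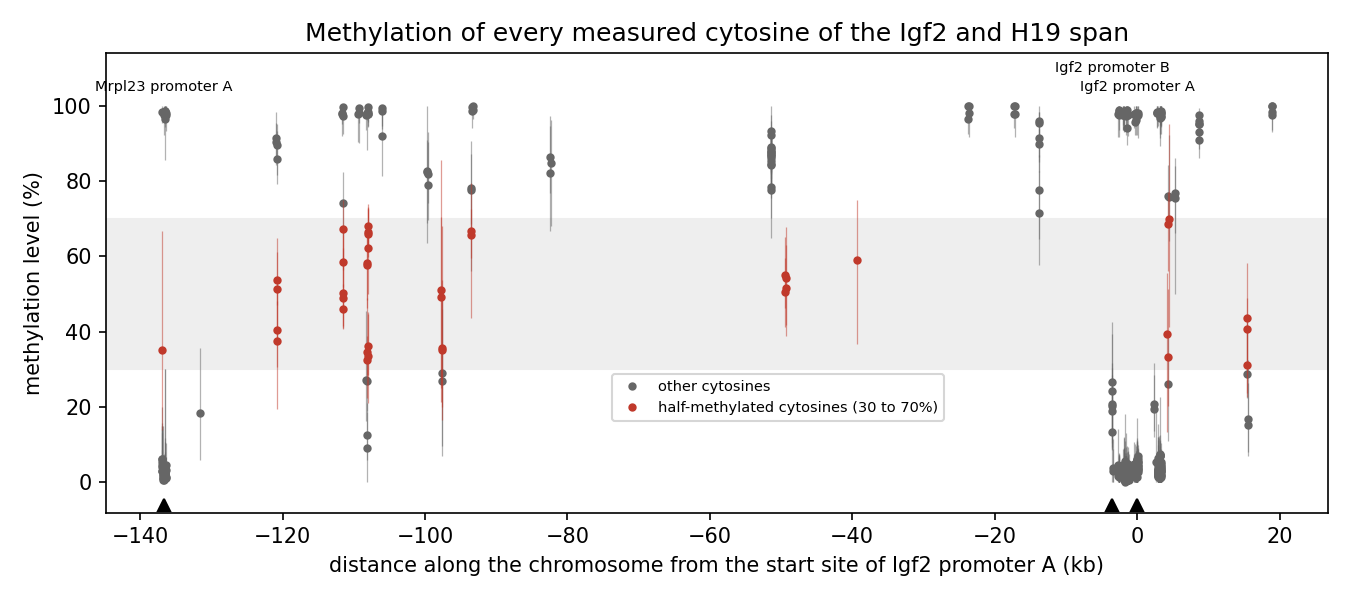
Methylation level (%) of each of the 571 measured cytosines against distance along the chromosome from the start site of Igf2 promoter A (kb, triangles mark the placed start sites). Points are means over 18 rats and vertical lines run from the lowest to the highest rat; red points lie in the grey band of 30 to 70%. The dense blocks from 215835541 to 215841599, which hold the start site of promoter A, sit near 0 with single cytosines near 98%, promoter B lies between 2.93 and 26.7%, and red points are scattered in small groups.

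Half-methylated cytosines, defined as those with a mean over all 18 rats from 30 to 70%, were no more frequent here than elsewhere in the table. They numbered 38 of 571, or 6.66%, against 8.44% of the whole table. Among the 6075 regular windows of 200000 bp with at least 100 measured cytosines, the median share was 6.90%, and 48.3% of the windows had a smaller share than the span. Cytosines under 10% made up 68.1% of the span and 48.1% of the table. Those over 90% made up 16.3 and 28.6%, and how many of them are CCGG cytosines is not known.

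These 38 cytosines belonged to 23 CpGs in 10 of the 27 measured blocks. Where both strands were measured they mostly gave similar levels. The plus-strand and minus-strand cytosines of the CpG at 215740572 had 35.3 and 35.6%, and those at 215730110 had 58.2 and 57.6%. The widest difference was at 215726649, with 46.1 and 58.5%. At 215788793 to 215788839 all 4 measured cytosines were close to 50%, with 50.6, 55.01, 51.7 and 54.2%. Over these 4, sham rats averaged 51.7% ± 8.71 (SD, n = 4) for kindling and 51.9% ± 2.95 (SD, n = 7) for kainic acid. Seizure rats averaged 56.1% ± 6.44 (SD, n = 4) and 52.5% ± 4.75 (SD, n = 3).

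A run was defined as at least 5 consecutive half-methylated cytosines with no gap above 500 bp, and the span held 1. It covered 47 bp, from 215730110 to 215730156, with 8 cytosines of 4 CpGs on both strands, and lay between the placed promoters of Mrpl23 and Igf2. In the table there were 8047 such runs with a median of 6 cytosines and a longest of 56, and 36.9% were at least as long as this one. Of the 13811 windows of 200000 bp in the table, 3887 held a run, and 2574 had at least 8 cytosines in runs. The windows with most cytosines in runs were on chromosome 3 (172200001 to 172400000) with 306, chromosome 18 (30800001 to 31000000) with 202, chromosome 12 (13200001 to 13400000) with 177, chromosome 1 (11800001 to 12000000) with 169 and chromosome 7 (11600001 to 11800000) with 140.

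The 4 CpGs of the run did not share 1 level. The first, at 215730110, had 58.2 and 57.6% on its strands. The next, at 215730125, had 34.7 and 32.4%. The CpG at 215730143 had 66.6 and 68.1%, and that at 215730155 had 65.9 and 62.3%. The strands of a CpG differed by 0.608 to 3.63 points, and the order low at 215730125 and high at 215730143 was the same in all 18 rats on the plus strand, where the highest rat at the former had 38.8% and the lowest at the latter 61.4%.

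**Figure D2:**
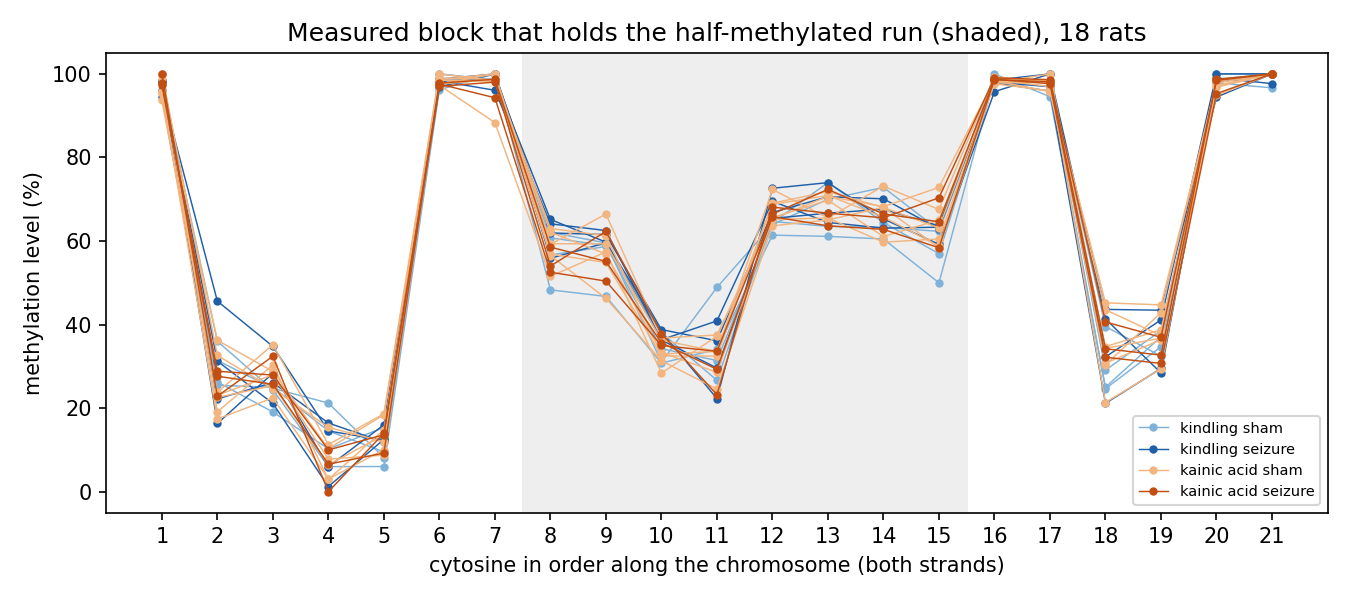
Methylation level (%) of the 21 cytosines of the block that holds the run, in order along the chromosome on both strands; each line is 1 of 18 rats, coloured by group, and the run of 8 cytosines is shaded. The lines of all groups follow 1 profile, with cytosines near 98% on both sides of the run and a dip to 34.7 and 32.4% inside it.

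The mean over the run varied little between rats. It was 55.7% ± 2.66 (SD, n = 18), from 49.1 to 59.6%, and each of its 8 cytosines stayed between 20 and 80% in every rat. Among the 1283 runs of the table that also have 8 cytosines, the median SD between rats was 4.69 points, and 96.4% had a larger SD than this run. Over the 506 of those whose mean lay within 5 points of this one, 97.4% did. The depth behind each value is unknown, and the part of depth in this spread was not tested.

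Over the 38 half-methylated cytosines of the span the median SD between rats was 5.91 points, against 7.53 points over the 196636 of the table, and 25 of the 38 lay below that median. Every rat was between 20 and 80% at 32 of the 38, or 84.2%, against 74.3% in the table. The spread differed within the span. The 10 half-methylated cytosines of the block with the run had a median SD of 4.79 points, and the 4 at 215740491 to 215740573 had 13.4 points. At the latter, single rats ran from 16.7 to 85.7%, and the block mean ran from 22.02 to 51.3%.

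**Figure D3:**
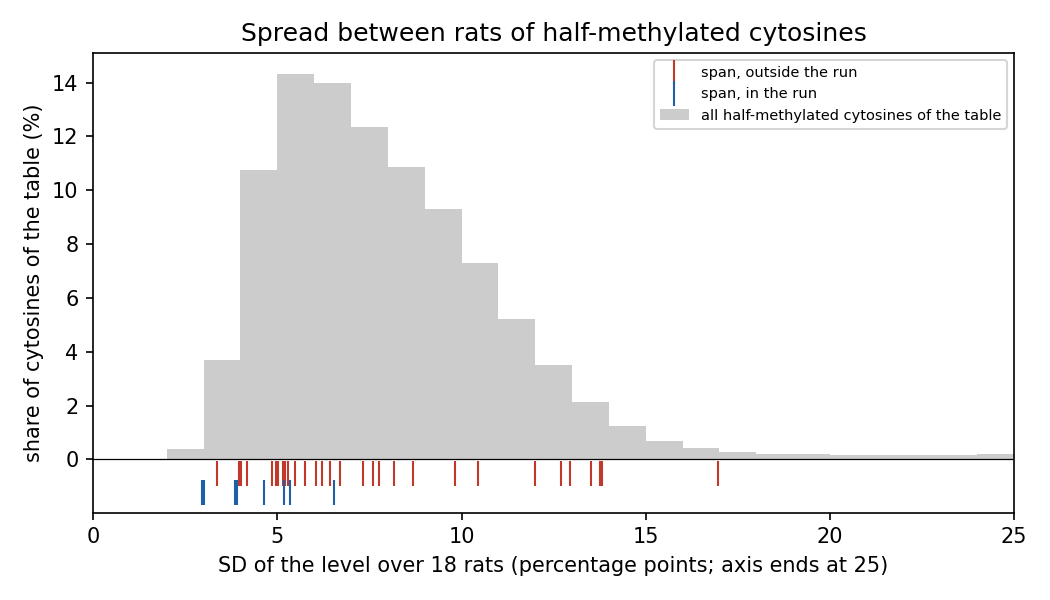
Share (%) of the half-methylated cytosines of the table by the SD of their level over 18 rats in percentage points (grey bars, 1 point wide, axis ending at 25), with a tick for each half-methylated cytosine of the span below the axis. Blue ticks, the 8 cytosines of the run, lie between 2.96 and 6.54 points; red ticks, the other 30, reach 16.96 points.

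Within 5000 bp of the run lay 29 other cytosines with a mean of 74.4% ± 0.809 (SD, n = 18), 20 at lower coordinates with 70.1% and 9 at higher coordinates with 83.7%. Of the 29, 17 were above 90%, 7 half-methylated and 4 below 30%, and 1 lay between 70 and 90%. Which of the 17 are CCGG cytosines is not known. Without them the other 12 had a mean of 40.9% ± 1.74 (SD, n = 18), and 7 of those 12 were half-methylated. Neighbouring CpGs could differ widely in level. In the block of the run the CpG at 215730051 had 9.11 and 12.5% and the next, at 215730082, 98.2 and 98.1%. Whether the CpG at 215730082 is a CCGG site is not known, so this step was not taken as a boundary of methylation.

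Seizure and sham rats were then compared at the run, at the flank within 5000 bp and over the whole span, to ask whether the half-methylated state moved with seizures. In kindling the run had 55.6, 54.2, 58.9 and 49.1% in sham rats 1 to 4 and 58.6, 57.1, 56.98 and 56.6% in seizure rats 1 to 4. Means were 54.5% ± 4.06 (SD, n = 4) and 57.3% ± 0.878 (SD, n = 4). The seizure rats lay inside the range of the sham rats, and sham rat 4 was the lowest of all 18 rats. The difference of 2.86 points did not pass (two-sided exact permutation p = 0.229, adjusted over 6 comparisons 0.686, smallest p possible 0.0286). Without sham rat 4, which also had the largest share of values of exactly 0 over the table (25.4%), it was 1.08 points. Without sham rat 3 it was 4.33 points.

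In kainic acid the run ran from 51.7 to 59.6% in sham rats with a median of 55.1%, and had 53.7, 55.2 and 56.0% in seizure rats. Means were 55.9% ± 2.81 (SD, n = 7) and 54.9% ± 1.19 (SD, n = 3), and all 3 seizure rats lay inside the range of the sham rats. The difference of -0.933 points did not pass (exact permutation p = 0.608, adjusted 0.912, smallest p possible 0.00833). It was 1.54 points when only rats with the same number were paired, and 0.703 points when levels of 25 to 75% counted as half-methylated, so its direction was not fixed. With single rats left out it ran from -1.63 (without sham rat 3) to -0.288 points (without seizure rat 1).

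For kindling the flank averaged 74.5% ± 1.29 (SD, n = 4) without and 74.5% ± 0.328 (SD, n = 4) with seizures, a difference of -0.00389 points (exact permutation p = 1, adjusted 1). In kainic acid it was 74.2% ± 0.928 (SD, n = 7) against 74.3% ± 0.457 (SD, n = 3), a difference of 0.0905 points (exact permutation p = 0.925, adjusted 1). Over the whole span kindling gave 26.3% ± 0.418 (SD, n = 4) without and 26.5% ± 0.583 (SD, n = 4) with seizures, which differed by 0.241 points (exact permutation p = 0.514, adjusted 0.912). In kainic acid they were 26.2% ± 0.334 (SD, n = 7) and 26.6% ± 0.366 (SD, n = 3), a difference of 0.459 points (exact permutation p = 0.1, adjusted 0.6). Relative to the mean of each rat over all cytosines of the table, the span moved by -0.0267 points for kindling and by 0.128 points for kainic acid. Over the 478 cytosines of the span not above 90%, the difference was 0.292 points for kindling and 0.580 points for kainic acid. With single rats left out the span difference ran from 0.0411 (seizure rat 1 omitted) to 0.441 points (seizure rat 4 omitted) for kindling, and from 0.322 (seizure rat 2 omitted) to 0.667 points (seizure rat 1 omitted) for kainic acid. A single comparison at the smallest p possible would have had an adjusted p of 0.171 for kindling and 0.05 for kainic acid, so none of the 6 could have fallen under 0.05 alone.

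At Igf2 promoter A, outside CCGG, kindling sham rats had 4.94, 3.53, 4.30 and 3.94% and kindling seizure rats 5.47, 4.60, 4.56 and 3.71%. Kainic acid sham rats ran from 3.44 to 5.90% with a median of 4.31%, and kainic acid seizure rats had 4.46, 6.50 and 5.20%. The groups overlapped in both models. The kindling difference was 0.410 points (exact permutation p = 0.429, adjusted over 6 promoter comparisons 0.857). For kainic acid it was 0.920 points (exact permutation p = 0.2, adjusted 0.6). With single rats left out they ran from 0.115 to 0.701 points for kindling, where seizure rats 1 and 4 set the ends. For kainic acid they ran from 0.363 when seizure rat 2 was omitted to 1.38 points when seizure rat 1 was. Promoter B differed by 1.17 points in kindling (exact permutation p = 0.6, adjusted 0.9) and by -0.125 points in kainic acid (exact permutation p = 0.933, adjusted 0.943), and neither kept its sign with single rats left out. The Mrpl23 promoter at the other end of the span had 1.59% in kainic acid sham rats and 3.35% in kainic acid seizure rats, over 28 cytosines. The cytosine 215701295 (35.1%) was left out there, since whether it lies in CCGG is unknown. The difference of 1.76 points did not pass after adjustment (exact permutation p = 0.025, adjusted 0.15). With single rats left out this difference ran from 1.23 (seizure rat 3 omitted) to 2.35 points (seizure rat 1 omitted). In kindling the Mrpl23 promoter differed by 0.0546 points.

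**Figure D4:**
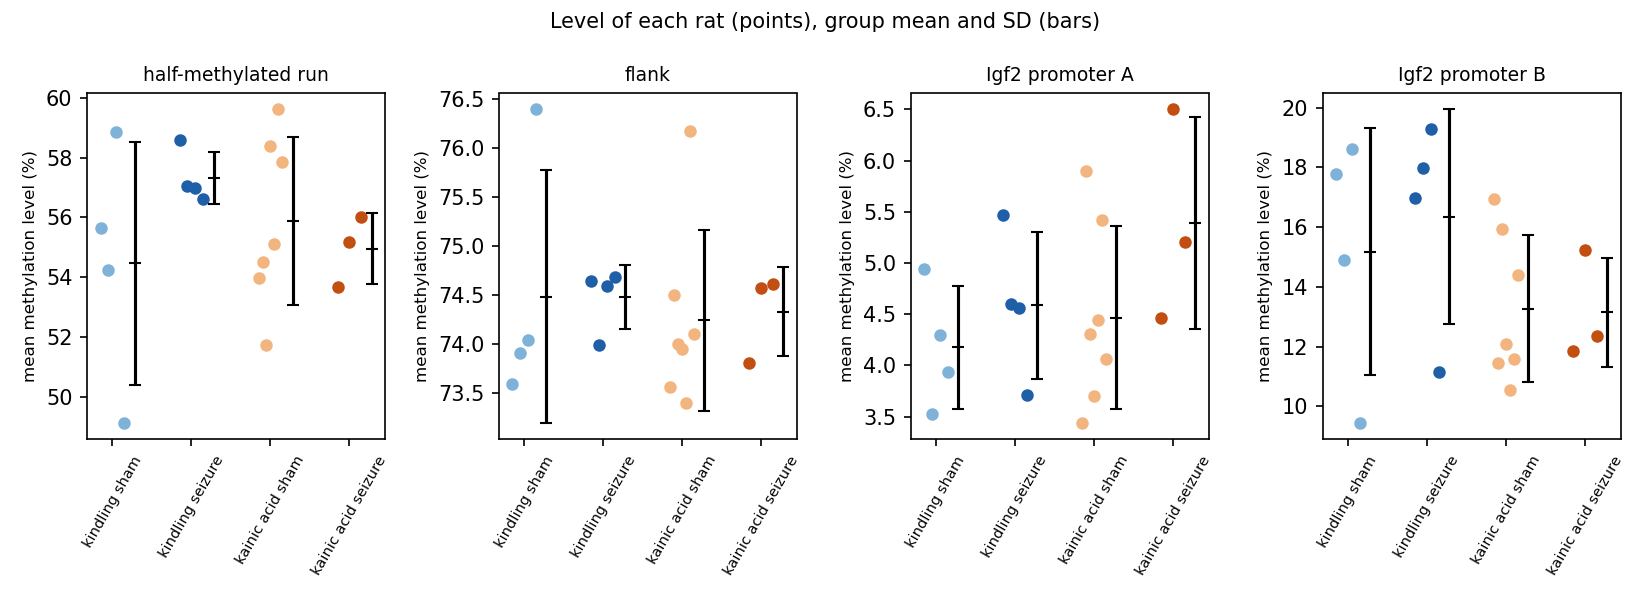
Mean methylation level (%) of each rat (points) with group mean and SD (bars) at the half-methylated run, its flank and both Igf2 promoters; each panel has its own axis, which does not start at 0. Sham and seizure rats overlap in every panel, and kindling sham rat 4 is lowest at the run (49.1%) and highest at the flank (76.4%).

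Differences along the span were tested by limma over all tiles of the table, a tile being 1000 bp with at least 3 cytosines and a range over the rats of at least 5 points. Of 26 tiles of the span with at least 3 cytosines, 15 reached that range, and the tiles of Igf2 promoter A were not among them. None of the 15 passed an adjusted p of 0.05 in kindling, in kainic acid or in the difference between models, where over all 84600 tiles the share called was 0% in each. At an unadjusted p under 0.05 the span had 0 tiles in kindling (5.71% of all tiles), 0 in kainic acid (3.54%) and 1 in the difference between models (4.75%). The tile with the run (start 215730001, 18 cytosines) differed by 1.43 ± 2.99 points (95% interval) in kindling and by -0.826 ± 2.92 points in kainic acid.

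The 1 tile of the difference between models, starting at 215755001 with 3 cytosines, had 92.5, 86.6, 85.5 and 82.4% in kindling sham rats and 83.5, 83.0, 78.8 and 84.8% in kindling seizure rats. In kainic acid it had 80.8 to 87.6% in sham rats (median 82.7%) and 90.9, 85.3 and 84.1% in seizure rats. The groups overlapped within each model. Seizure minus sham was -4.23 ± 4.42 points for kindling and 3.44 ± 4.31 points for kainic acid. Between the models it differed by 7.66 ± 6.17 points (limma, adjusted p = 0.99987).

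The other tiles of smallest p were given as values. In kindling the tile starting at 215738001 was higher by 3.46 ± 4.63 points and that at 215732001 by 1.69 ± 2.53 points, and the tile at 215840001, upstream of Igf2 promoter A, was lower, at -1.35 ± 3.72 points. In kainic acid the tile at 215732001 differed by 1.16 ± 2.47, that at 215824001 by -1.15 ± 3.65 and that at 215840001 by -1.04 ± 3.63 points. Between the models the tile at 215786001 differed by 0.890 ± 4.004 points, that with the run by -2.26 ± 4.18 and that at 215717001 by -2.15 ± 5.84. All these intervals include 0.

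**Figure D5:**
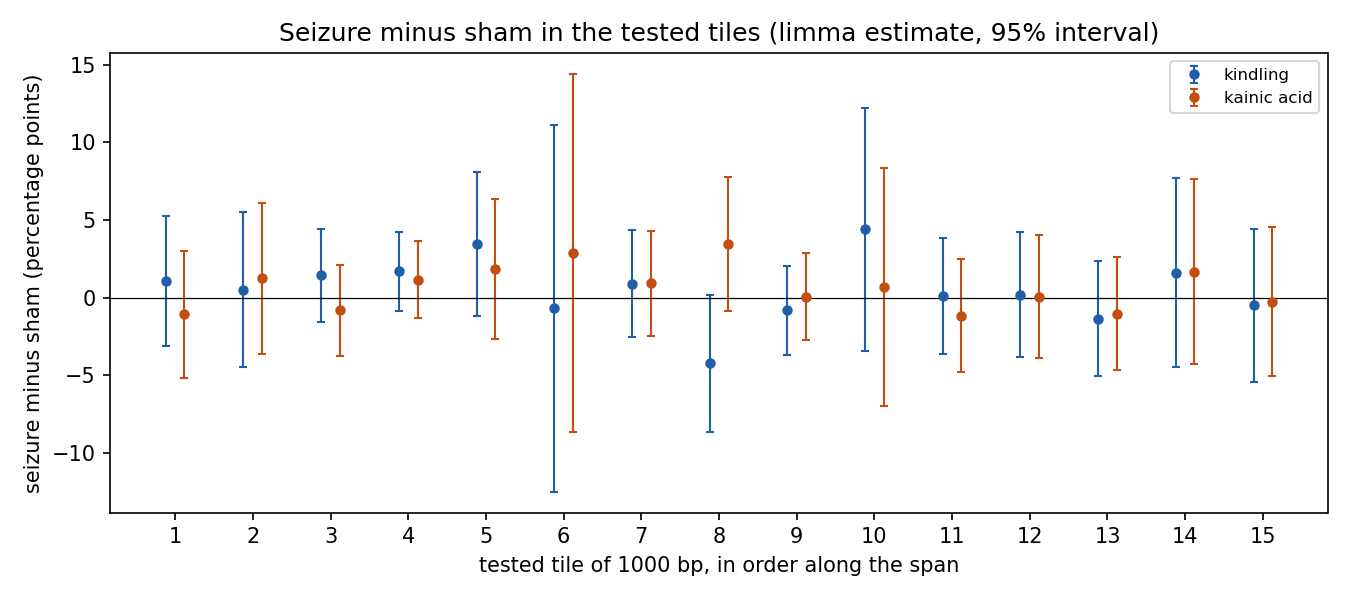
Seizure minus sham in percentage points for the 15 tested tiles of the span in order along the chromosome, as limma estimates with 95% intervals for kindling (blue) and kainic acid (orange). Every interval includes 0; the tile with the run is the third and that starting at 215755001 the eighth.

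Among single cytosines, 130 of the span had a range of at least 10 points and were tested with 800753 in the whole table. None of the 130 passed in any of these 3 contrasts, where the share called over the table was 0% in kindling, 0.000624% in kainic acid and 0.000624% in the difference between models. At an unadjusted limma p under 0.05 the span had 3 in kindling (5.72% of all), 4 in kainic acid (3.82%) and 2 in the difference between models (4.63%). Without the range filter 565 cytosines of the span and 2271214 of the table were tested. Then the span had 28 in kindling (112487 in the table), 29 in kainic acid (122849) and 22 between the models (99724). The smallest unadjusted limma p in the span was then 1.7e-05 in kindling and 0.00028 in kainic acid, and none was called. Among the 130, the smallest p lay 88 bases downstream of the Igf2 promoter A start site, at 215838121 on the plus strand. There kainic acid seizure rats had 6.90, 7.04 and 10.7% and kainic acid sham rats 0 to 5.19% (median 2.56%). These did not overlap, nor did the groups at 215717375 in kainic acid or at 215717309 in kindling, both given below. These cytosines were named for their small p among the 130, and how many of the table separate in this way was not counted. No result was drawn from the separation. At 215838121 the difference was 5.70 ± 3.61 points in kainic acid (limma, adjusted p = 1). This cytosine reached the range of 10 points only through the kainic acid seizure rat at 10.7%, so filter and difference are not independent. The same cytosine had 2.95% ± 1.51 (SD, n = 4) without and 3.00% ± 1.495 (SD, n = 4) with kindling seizures. The difference between the models there was 5.66 ± 5.17 points (limma, adjusted p = 0.999).

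At the half-methylated cytosine 215717375 kainic acid sham rats had 57.5% ± 2.33 (SD, n = 7) and seizure rats 50.1% ± 3.27 (SD, n = 3), with 51.4 and 52.03% for kindling sham and seizure. It did not pass (limma, adjusted p = 1). The plus-strand cytosine of this CpG, 215717374, had a seizure minus sham difference of 0.757 ± 9.69 points for kainic acid. The drop was therefore not seen on the plus strand, but this interval is too wide to exclude it. In the same block the cytosine 215717309 had 87.4% ± 1.87 (SD, n = 4) in kindling sham and 93.7% ± 1.44 (SD, n = 4) in kindling seizure rats. That did not pass (limma, adjusted p = 0.850), and its difference between the models was -8.02 ± 7.32 points. Its minus-strand partner 215717310 differed by 0.0666 ± 4.89 points in kindling, so the kindling difference was not seen on that strand. In kainic acid this partner differed by -4.52 ± 4.77 points. At 215701366, in the Mrpl23 promoter, all 11 sham rats had 0%, so it reached the range of 10 points through seizure rats alone. Kindling seizure rats 1 to 4 had 3.33, 10.3, 0 and 0% there and kainic acid seizure rats 1 to 3 had 0, 4.76 and 15%, so the groups overlapped at 0 in both models. The kainic acid difference did not pass (limma, adjusted p = 1). The remaining cytosines of smallest p differed by 4.83 points (215701666), -6.24 points (215786784) and -6.26 points (215755781) in kindling, and by 5.88 points (215786805) and -5.76 points (215841253) between the models, and none passed.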

How the data were processed

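Methylation of hippocampal DNA was measured in 18 rats. The authors deposited a table of methylation fractions (0 to 1) per cytosine and strand, with 0 missing values. Per the submitters' processing notes, build rn6 was used with Bismark, Bowtie2, Trim Galore, FastQC and methylKit; neither versions nor roles are stated. Coverage is not in the table, so depth and counting error are unknown, and a minimum coverage was not given in the sources used here. Fractions were multiplied to percent, and differences are seizure minus sham in percentage points. Each column was tied to its rat through the library name, and 0 columns stayed unused.

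Half-methylated cytosines had a mean of 30 to 70% over all 18 rats, a choice blind to the groups. Promoter sequences came from RefSeq (GRCr8). For chromosome 1, sequences with at least 8 CpGs were placed where every measured CpG of the window was a CpG of the sequence and at least 8 matched, at least 2 times as many as at any other such place. This rule was set after seeing the data and replaced a first form that placed no promoter in the span; methylation levels were not used in it. Of 1961 sequences with a fully matching place, 795 were accepted, and promoter B of Igf2 was placed by its distance to promoter A. Means per rat were compared by two-sided exact permutation tests with Benjamini-Hochberg adjustment. Tiles and cytosines were tested by limma 3.58.1 in R 4.3.3 with 1 fit over the 4 groups (14 residual degrees of freedom), a variance trend and Benjamini-Hochberg adjustment over the table. Tested on simulated data with intermediate levels, limma recovered 76% (kindling) and 84% (kainic acid) of tile differences of 20 points among 84600 tiles, and 18 and 22% of those of 10 points. Among 800753 cytosines it recovered 0% of differences of 10 points for either model, 2 and 8% of those of 20 points, and 38 and 40% of those of 30 points. The differences named above for single cytosines of the span were all under 10 points. The simulation covered levels of 30 to 70%, and most of these cytosines lay outside them, where recovery was not simulated. Nor was the difference between models simulated. Figures used Python 3.11.15 and matplotlib 3.10.9.

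The members and lists were chosen with earlier results of these data known. The tiles and cytosines named are, for each contrast, the 2 of smallest p in each direction among those that met the range filter. The list of other imprinted genes that had been drawn up was not used, since it needs an rn6 annotation. Whether the rats of a group came from separate litters is not given, and p-values measure the spread between these samples.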

Additional observations from a re-analysis of the deposited data

Results flagged for a closer look

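The mean of the flank set 1 rat apart from the rest of its group in each of the 3 groups of at least 4 rats. The kainic acid seizure group, with 3 rats, was too small for this check. Kindling sham rat 4 had 76.4%, where the nearest other sham rat had 74.04% and the lowest 73.6%. Kindling seizure rat 2 had 73.99%, below the 74.6 to 74.7% of the other seizure rats. Kainic acid sham rat 6 had 76.2%, with the next at 74.5% and the lowest at 73.4%. Each was the gap to the nearest rat divided by the range of the group (0.838, 0.869 and 0.604), set against Dixon's 95% limit of 0.829 for 4 rats and 0.568 for 7. Chance flags about 1 in 20 groups, or 0.9 of the 18 combinations of group and mean examined, and 3 were found. No explanation was tested.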

How the results depend on the processing

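No tile and no cytosine of the span was called under any of the 148 combinations of contrast and alternative run with limma (smallest adjusted p 0.356). These covered the log2 odds scale, the replicate number as a block, no range filter, an adjusted p under 0.10, fits within 1 model, tiles of 500 and 2000 bp, at least 5 cytosines, averaged strands and each rat left out. No run, flank or span mean had an adjusted p under 0.05 under the alternatives run, nor had a promoter mean with single rats left out, the one alternative run for promoters. This does not show stability, since a single comparison could not pass. With 1 rat left out the smallest p possible was 0.0286 for kindling and 0.0119 or 0.0278 for kainic acid, and with the replicate block 0.125 and 0.25. The run in kindling without sham rat 3 (4.33 points, exact permutation p = 0.0286, adjusted 0.171) and the span in kainic acid without seizure rat 1 (0.667 points, exact permutation p = 0.0278, adjusted 0.167) were at these limits. The sign of small differences did turn. For the run in kainic acid it was 0.703 points with half-methylation from 25 to 75% and 1.54 points with the replicate block (rats paired by number). The span in kindling was -0.0267 points after subtracting the mean of each rat, and the flank in kainic acid then -0.240 points. The flank in kindling was 0.508 points with half-methylation from 25 to 75%, 0.129 with a flank of 2000 bp and 0.416 with 10000 bp. The flank in kainic acid was -0.00319 points with 2000 bp. With single rats left out, the flank ran from -0.303 to 0.635 points in kindling and from -0.0524 to 0.414 in kainic acid. Igf2 promoter B ran from -0.747 to 2.91 and from -1.17 to 0.518 points, and the Mrpl23 promoter in kindling from -0.415 to 0.439. With half-methylation from 35 to 65%, with at least 10 cytosines, or with averaged strands the span held no run, so these gave no run or flank value. Added after seeing the data were runs of at least 4 cytosines (2 runs, 12 cytosines), passing over cytosines above 90% (1 run, 10 cytosines) and the promoter means. Rats with the same number did not deviate together over the tested tiles (correlations of -0.111 to 0.155 in kindling and -0.0418 to -0.0156 in kainic acid), so the numbers were not taken as pairs. Without read counts, what depth limits could not be determined.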
